A study of Mus musculus with 10 samples.

Results

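The comparison described here asks whether a plasmid that expresses Usp17le and a short hairpin RNA against Dux act independently on the transcriptome of mouse embryonic stem cells. It uses 8 of the 10 RNA-seq libraries of the series, 2 from each of 4 groups, and 14659 of the 24370 genes in the deposited table, those reaching 0.5 TPM (reads per gene divided by gene length and brought to a fixed total per library) in 2 or more of the 10 libraries. In Usp17le OE-Dux KD cells the hairpin was put into cells that already overexpressed Usp17le. Usp17le OE cells received the plasmid and were selected with puromycin, Dux KD cells received the hairpin and were selected with puromycin, and WT cells were grown without any transfection. The labels give the mouse line J1 for every library, while the study's methods describe overexpression in a line called E3. The line is given here as labelled. Cells with an empty vector or a scrambled hairpin were not analysed here. An effect of transfection or selection that both manipulations share is counted in each of the single effects, and it cannot be told apart from an interaction between Usp17le and Dux. Whether replicates are separate cultures is not said in the labels, so the p-values reflect only how far these libraries spread, possibly for technical reasons. In a check of the labelled cell type, all 10 stem cell markers examined were at 30.9 TPM or more in each of the 8 libraries.

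USP17LE is a deubiquitinase of the Usp17l family, a group of near-identical genes transcribed at the 2-cell stage of the mouse embryo. DUX is the double homeodomain transcription factor that switches on many genes of that stage, Zscan4 and the Usp17l genes among them, and embryonic stem cells pass into a 2-cell-like state from time to time. Stem cells in culture also run on glycolysis, respond to hypoxia and amino acid supply through HIF and ATF4, and leave the naive state through FGF and ERK signalling. Gene lists for these processes were used to describe where the joint effect departed from the single ones.

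The interaction was measured on the log2 scale of TPM, after median-of-ratios scaling of the libraries, as the hairpin effect in cells with the plasmid (Usp17le OE-Dux KD minus Usp17le OE) minus the hairpin effect in cells without it (Dux KD minus WT). A value of 0 means that the 2 effects multiply on the TPM scale, which is called additive here. A positive value, or "higher than additive", means that the doubly manipulated cells had more transcript than the product of the single effects gives, and a negative value means less. A gene was called when its Benjamini-Hochberg adjusted p in limma was under 0.05. In bulk RNA, fewer cells of a type and less RNA per cell cannot be told apart, and this holds for each result that follows.

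Usp17le was high where the labels name the plasmid, while the fall of Dux with the hairpin passed the test only in the plasmid background. Usp17le (chromosome 7, 104768049 to 104777470, minus strand, GRCm38.p6) was at 8.99 and 8.86 TPM in Usp17le OE-Dux KD cells, 30.0 and 35.2 TPM in Usp17le OE cells, 0.44 and 0.384 TPM in Dux KD cells and 2.17 and 0.79 TPM in WT cells. The libraries with the plasmid were all above those without it, but the doubly manipulated cells held less Usp17le transcript than the cells with the plasmid alone (log2 difference -1.85, limma adjusted p = 0.00308). Dux was at 0.353 and 0.347 TPM in Usp17le OE-Dux KD cells (15 and 16 reads), 2.15 and 1.85 TPM in Usp17le OE cells (80 and 75 reads), 0.0965 and 0.0 TPM in Dux KD cells (4 and 0 reads), and 0.144 and 0.315 TPM in WT cells (5 and 12 reads). Dux was high with the plasmid alone and low in the other 3 groups. The paper describes the Dux locus as tandem repeats, and only uniquely mapped reads were counted, so the Dux values are uncertain. The hairpin effect on Dux was -2.22 in the plasmid background (adjusted p = 0.0037), and the difference of -1.18 in the WT background did not pass the test (adjusted p = 0.0763). Neither target departed from additivity by the test, with an interaction of -0.38 ± 0.56 (SE) for Usp17le (adjusted p = 0.612) and -1.03 ± 0.73 for Dux (adjusted p = 0.274). The estimate for Usp17le became 0.3 without WT replicate 2 (adjusted p = 0.536) and -1.05 without WT replicate 1, where it was called (adjusted p = 0.0467), and with a pseudocount of 1 both genes were called lower than additive, Usp17le at -1.0 (adjusted p = 0.0372) and Dux at -0.92 (adjusted p = 0.00365). On recovered reads with voom, the estimate for Dux was 0.56 (adjusted p = 0.729). The lower Usp17le level in the doubly manipulated cells lies under each interaction given below, and its part in them was not tested.

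The sequences just upstream of 3 hypoxia response genes are shown because this response held the 2 genes with the largest positive interaction among the named genes and 1 of the few genes whose effects nearly added. The binding core of the hypoxia-inducible factors, ACGTG or GCGTG on either strand, is in capitals. Each window runs from 250 bases before to 50 bases from the start of the RefSeq gene (GRCm38.p6) and is written in the direction of the gene. Adm lies at chr7:110627407-110627706 on the plus strand, with cores at -90 and -54 from the start. Cited2 lies at chr10:17722978-17723277 on the plus strand, where the 2 cores, at -153 and -152, are both strands of one palindrome. Fam162a lies at chr16:36071512-36071811 on the minus strand, with cores at -213, -81, -72, -58, -50 and -19.
Adm: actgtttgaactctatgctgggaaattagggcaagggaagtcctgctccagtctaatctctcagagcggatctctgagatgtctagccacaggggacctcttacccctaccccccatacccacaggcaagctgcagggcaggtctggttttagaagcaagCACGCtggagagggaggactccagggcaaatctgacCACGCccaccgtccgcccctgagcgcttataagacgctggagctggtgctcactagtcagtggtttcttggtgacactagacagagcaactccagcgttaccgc
Cited2: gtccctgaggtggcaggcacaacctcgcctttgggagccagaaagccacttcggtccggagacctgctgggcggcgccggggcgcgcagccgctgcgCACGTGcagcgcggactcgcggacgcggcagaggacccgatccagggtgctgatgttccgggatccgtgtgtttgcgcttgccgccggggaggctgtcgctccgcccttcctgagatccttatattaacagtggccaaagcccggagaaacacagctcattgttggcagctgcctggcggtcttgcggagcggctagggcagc
Fam162a: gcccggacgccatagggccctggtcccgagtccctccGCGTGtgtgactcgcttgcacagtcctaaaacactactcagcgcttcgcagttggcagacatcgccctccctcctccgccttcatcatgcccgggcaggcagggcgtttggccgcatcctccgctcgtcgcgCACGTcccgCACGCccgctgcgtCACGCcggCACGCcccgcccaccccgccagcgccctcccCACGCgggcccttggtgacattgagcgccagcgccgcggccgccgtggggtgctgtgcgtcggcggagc
Cores of this kind are common. They stood in 79.7% of the windows of tested members of the hypoxia and glycolysis lists (59 of 74 windows, 50 of 61 genes matched). The share was 61.4% for genes called higher than additive, 63.3% for genes called lower, 60.4% for all genes tested here (10872 of 14659 matched) and 43.8% for all 32851 windows of the table. Median GC content was 62.7% in the windows of these lists, 61.3% in those of genes called higher, 61.3% in those of genes called lower, 60.3% in those of all genes tested and 52.7% in all windows. A match in these letters is a description and not a binding site.

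Departure from additivity was widespread and went in both directions. Of 14659 genes, 6546 were called (44.7%), with 2958 higher than additive (20.2%) and 3588 lower (24.5%). The counts for gene lists below are to be read against these shares. A called departure of at least 2-fold was seen in 1945 of the 14659 genes (13.3%), 1144 higher and 801 lower, and one of at least 4-fold in 305 genes that were higher and 118 that were lower. The median interaction was -0.0247 and its median size 0.442, against a median SE of 0.156. For 4558 genes (31.1%) the 95% interval of the interaction lay within 1.5-fold either way. The scale mattered little for the sign, since the difference of TPM values themselves pointed the other way for 39 of the 6546 called genes (0.596%).

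**Figure D1:**
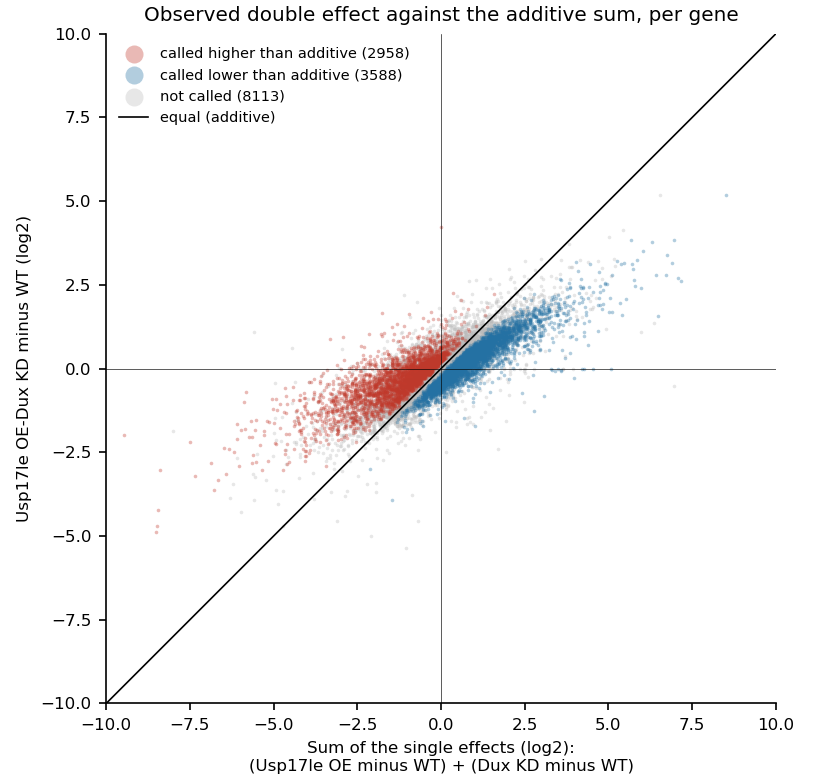
Joint effect against the sum of the single effects for 14659 genes. The vertical axis is Usp17le OE-Dux KD minus WT and the horizontal axis is Usp17le OE minus WT plus Dux KD minus WT, both in log2 units of scaled TPM. Red points are the 2958 genes called higher than additive, blue points the 3588 called lower and grey points the 8113 not called. The cloud is flatter than the black line of equality, with called genes above it on the left and below it on the right.

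The single effects were themselves broad. The hairpin changed 8854 genes in the plasmid background (60.4%, with 4350 or 29.7% up and 4504 or 30.7% down) and 7938 genes in the WT background (54.2%, with 4222 or 28.8% up and 3716 or 25.3% down). The plasmid changed 9682 genes against WT (66.0%, with 4838 or 33.0% up and 4844 or 33.0% down). The WT libraries enter the hairpin effect in WT, the plasmid effect and the interaction, so a high or low WT value moves all 3, and the counts by single effect that follow are descriptions. Choosing genes with large single effects of the same sign also favours an interaction of the opposite sign, since the same libraries enter each. How far this choice shaped the counts was not tested.

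The joint effect fell short of the sum where both manipulations moved a gene the same way. There were 602 genes with both single effects called and at least 2-fold. Of these, 226 rose with either manipulation, and 195 of the 226 were lower than additive and 0 higher. In the doubly manipulated cells these genes had a median of 1.65 above WT, against a median sum of 2.97, a median plasmid effect of 1.64 and a median hairpin effect of 1.23. For 102 of the 226 genes the joint effect went beyond the larger single effect, for 101 it lay between the 2 single effects, and for 23 it was short of the smaller one.

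The mirror image was seen for 260 genes that fell with either manipulation, 221 of which were higher than additive and 0 lower. Their median was -1.58 in the doubly manipulated cells, against -3.26 for the sum, -1.76 for the plasmid and -1.38 for the hairpin. The joint effect exceeded the larger single effect in 77 of these genes, lay between the single effects in 94 and was short of the smaller in 89. Where the plasmid raised and the hairpin lowered a gene (106 genes), 6 were higher and 14 lower than additive, with a median interaction of -0.31. In the opposite case there were 10 genes, 4 of them higher than additive.

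**Figure D2:**
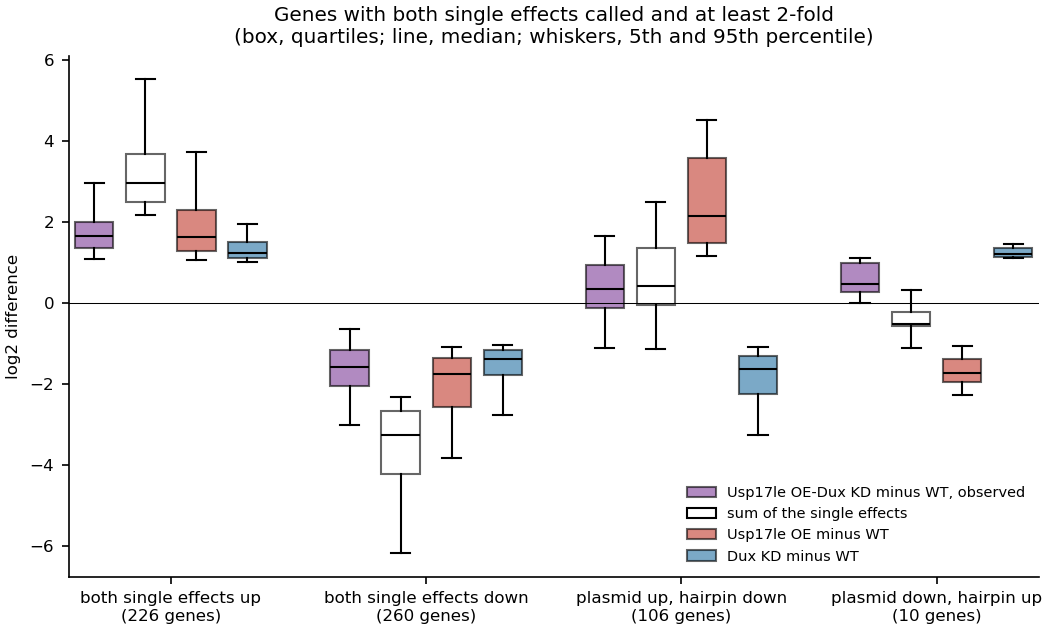
Effects against WT for genes whose 2 single effects were both called and at least 2-fold, in log2 units. In each set of 4 boxes, from the left, are the joint effect of Usp17le OE-Dux KD, the sum of the single effects, the Usp17le OE effect and the Dux KD effect. Boxes span the quartiles, lines are medians and whiskers reach the 5th and 95th percentiles. For the 226 genes that rose with both, the median joint effect was 1.65 and the median sum 2.97, and for the 260 that fell with both they were -1.58 and -3.26.

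Near-additive genes were rare among strong responders. Only 4 of the 602 genes (0.664%) had an interaction whose 95% interval stayed within 1.5-fold, namely Serpine2, Fam162a, Klf4 and the predicted gene Gm364, the last of which falls outside the naming rule and was chosen after its values were seen. The count was 2 without Usp17le OE replicate 1, 2 without Usp17le OE-Dux KD replicate 1 and 7 with a pseudocount of 1, when 239 genes had both single effects. Of the 602 genes, 231 were called higher and 209 lower than additive, and the others were not called but had wider intervals, apart from Serpine2 and Gm364. Serpine2, which encodes a secreted serine protease inhibitor, was at 19.4 and 22.2 TPM in Usp17le OE-Dux KD cells, 50.4 and 54.4 TPM in Usp17le OE cells, 8.01 and 7.59 TPM in Dux KD cells and 21.9 and 20.9 TPM in WT cells. The additive value was 19.2 TPM, next to the observed ones, and the interaction was 0.11 ± 0.15 (adjusted p = 0.561). The plasmid raised it, the hairpin lowered it, and doubly manipulated cells overlapped WT. Klf4, a naive pluripotency transcription factor, was at 151 and 152 TPM in Usp17le OE-Dux KD cells, 91.7 and 90.7 TPM in Usp17le OE cells, 92.0 and 91.1 TPM in Dux KD cells and 43.3 and 42.7 TPM in WT cells. It rose with each manipulation and rose further with both, to somewhat less than the additive value of 194 TPM (interaction -0.36 ± 0.05, adjusted p = 0.000336).

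Sorting the 6546 called genes by what the hairpin did in each background showed several kinds of departure. The largest class, 2029 genes (31.0%), changed with the hairpin in plasmid cells only by the test, and 1369 (20.9%) did so in WT cells only. Another 1144 (17.5%) moved in opposite directions, 468 up and 676 down with the hairpin in plasmid cells. The effect had the same sign but was larger in plasmid cells for 1304 genes (19.9%) and smaller for 571 (8.72%), and for 129 (1.97%) neither hairpin effect passed the test. All these genes passed the test of the difference between the backgrounds.

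Most targets of hypoxia-inducible factors were higher than additive. Of 43 measured genes (45 listed), 32 were higher than additive, 2 lower and 9 not called. The shares over all genes were 20.2% higher and 24.5% lower. The median interaction of the list was 1.12, against -0.0247 over all genes. The hairpin raised 30 and lowered 7 of the 43 in the plasmid background, and raised 5 and lowered 31 in the WT background. The plasmid alone raised 3 and lowered 34. The summed level of the 43 genes was 3006 TPM in Usp17le OE-Dux KD cells, 2457 TPM in Usp17le OE cells, 4060 TPM in Dux KD cells and 7001 TPM in WT cells.

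Adm, which encodes the vasodilator peptide adrenomedullin, had the largest interaction of the named genes. It was at 10.5 and 8.34 TPM in Usp17le OE-Dux KD cells, 0.511 and 2.25 TPM in Usp17le OE cells, 13.6 and 16.4 TPM in Dux KD cells and 79.8 and 75.7 TPM in WT cells. Either manipulation lowered Adm, the plasmid more than the hairpin, yet the doubly manipulated cells were above the cells with the plasmid alone, and no 2 groups overlapped. The interaction was 5.35 ± 0.82 (adjusted p = 0.00271), from a hairpin effect of 2.98 in plasmid cells and -2.37 in WT cells. Ndrg1 (chromosome 15, 66929318 to 66969640, minus strand), a stress-response gene induced by low oxygen, was measured more tightly. It was at 45.7 and 48.1 TPM in Usp17le OE-Dux KD cells, 3.42 and 3.08 TPM in Usp17le OE cells, 45.0 and 45.4 TPM in Dux KD cells and 95.9 and 92.2 TPM in WT cells. Cells with the hairpin had nearly the same level with or without the plasmid, although Ndrg1 fell by 4.81 on the log2 scale with the plasmid alone. The additive value was 1.51 TPM and the interaction 4.87 ± 0.09 (adjusted p = 1.4e-09), with hairpin effects of 3.81 and -1.06.

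Bhlhe40, a basic helix-loop-helix repressor of the clock and of differentiation genes, was at 58.7 and 58.5 TPM in Usp17le OE-Dux KD cells, 5.93 and 7.78 TPM in Usp17le OE cells, 131 and 134 TPM in Dux KD cells and 212 and 204 TPM in WT cells (interaction 3.73 ± 0.14, adjusted p = 1.62e-07). Ndufa4l2, a mitochondrial protein gene that low oxygen induces, was at 32.1 and 41.1 TPM in Usp17le OE-Dux KD cells, 4.96 and 3.48 TPM in Usp17le OE cells, 85.0 and 81.7 TPM in Dux KD cells and 154 and 156 TPM in WT cells (interaction 3.99 ± 0.23, adjusted p = 8.56e-06). Both genes were lowered by either manipulation and lay far above their additive values of 4.32 and 2.19 TPM when the 2 were combined. Fam162a, a mitochondrial gene of the same response, fell with each manipulation, to 218 and 225 TPM in Usp17le OE-Dux KD cells, 495 and 465 TPM in Usp17le OE cells and 391 and 336 TPM in Dux KD cells, against 1010 and 997 TPM in WT cells. Its additive value was 173 TPM and its interaction 0.35 ± 0.10 (adjusted p = 0.0197), a call lost when WT replicate 1, Usp17le OE replicate 2 or Usp17le OE-Dux KD replicate 2 was left out (adjusted p up to 0.0688 over 17 alternatives). The hairpin lowered it in both backgrounds, unlike Adm and Ndrg1. Cited2, a competitor of HIF for its coactivator, went the other way, at 49.7 and 50.2 TPM in Usp17le OE-Dux KD cells, 38.4 and 38.9 TPM in Usp17le OE cells, 20.1 and 18.8 TPM in Dux KD cells and 12.8 and 10.5 TPM in WT cells. Both manipulations raised it, and its interaction of -0.37 ± 0.13 (adjusted p = 0.037) was lost under 8 of 17 alternatives, with adjusted p from 0.00507 to 0.111 over all 17. The libraries whose omission ended the call were WT replicate 2, either Usp17le OE library, Dux KD replicate 1 and either Usp17le OE-Dux KD library.

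Every glycolysis gene measured departed upward. All 18 (19 listed) were higher than additive, between 0.251 and 2.34, with a median of 1.33. The hairpin raised 17 and lowered 0 of them in plasmid cells, with a median of 1.19, and raised 2 and lowered 6 in WT cells, with a median of 0.001. The plasmid alone lowered all 18, with a median effect of -1.97. Their summed level was 16220 TPM in Usp17le OE-Dux KD cells, 6925 TPM in Usp17le OE cells, 25180 TPM in Dux KD cells and 26990 TPM in WT cells.

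Slc16a3, the monocarboxylate transporter that exports lactate, was at 104 and 105 TPM in Usp17le OE-Dux KD cells, 26.6 and 26.0 TPM in Usp17le OE cells, 209 and 207 TPM in Dux KD cells and 266 and 264 TPM in WT cells. The groups were wide apart and the replicates close, with an interaction of 2.34 ± 0.05 (adjusted p = 3.55e-09) and an additive value of 20.6 TPM. Aldoc, the aldolase of brain and stem cells, was at 33.0 and 36.4 TPM in Usp17le OE-Dux KD cells, 11.2 and 10.6 TPM in Usp17le OE cells, 87.5 and 91.3 TPM in Dux KD cells and 132 and 136 TPM in WT cells (interaction 2.24 ± 0.08, adjusted p = 5.8e-08). Eno2, an enolase, was at 1.47 and 1.12 TPM in Usp17le OE-Dux KD cells, 1.2 and 0.662 TPM in Usp17le OE cells, 1.89 and 1.35 TPM in Dux KD cells and 4.58 and 4.77 TPM in WT cells. For Eno2 the 3 manipulated groups were close together and all below WT (interaction 1.96 ± 0.39, adjusted p = 0.00248).

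Mitochondrial respiration departed less. Of 73 oxidative phosphorylation genes (74 listed), 14 were higher than additive, 3 lower and 56 not called, so 23.3% were called against 44.7% of all genes. The hairpin lowered 57 of them in plasmid cells and 61 in WT cells, with medians of -0.70 and -0.82. Ndufv3, a complex I subunit, was at 63.1 and 65.6 TPM in Usp17le OE-Dux KD cells, 67.9 and 57.9 TPM in Usp17le OE cells, 76.3 and 63.4 TPM in Dux KD cells and 134 and 136 TPM in WT cells (interaction 0.99 ± 0.13, adjusted p = 0.000248). The 3 manipulated groups overlapped, all below WT. The split between directions moved with the processing, to 9 higher and 9 lower without the scaling of libraries, 22 and 13 after removal of a trend with gene length, 9 and 2 without WT replicate 2, and 26 and 2 without Dux KD replicate 1. Among 18 genes of the citric acid cycle 6 were higher and 4 lower, against 20.2% and 24.5% of all genes, with a median of 0.03 that became -0.06 without scaling.

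Genes of the integrated stress response, which ATF4 drives when amino acids or protein folding fail, leaned upward. Of 35 measured genes (36 listed), 20 were higher than additive, 4 lower and 11 not called, with a median of 0.42. Over all genes 20.2% were higher and 24.5% lower. The hairpin raised 26 and lowered 1 in plasmid cells and raised 13 and lowered 7 in WT cells. Ddit3, the stress-induced transcription factor CHOP, was at 35.7 and 34.5 TPM in Usp17le OE-Dux KD cells, 19.4 and 13.4 TPM in Usp17le OE cells, 56.9 and 57.2 TPM in Dux KD cells and 166 and 170 TPM in WT cells. Each manipulation lowered Ddit3, and the hairpin raised it when the plasmid was present (interaction 2.67 ± 0.19, adjusted p = 1.76e-05, additive value 5.42 TPM). Nupr1, a chromatin-associated stress protein gene, was at 103 and 102 TPM in Usp17le OE-Dux KD cells, 15.9 and 19.1 TPM in Usp17le OE cells, 153 and 133 TPM in Dux KD cells and 136 and 134 TPM in WT cells. The hairpin effect was 2.55 in plasmid cells and 0.08 in WT cells, the second of which did not pass the test (interaction 2.48 ± 0.12, adjusted p = 6.14e-07). Fgf21, a stress-induced hormone gene, was at 0.252 and 0.139 TPM in Usp17le OE-Dux KD cells, 0.0 in both Usp17le OE libraries, 0.206 and 0.65 TPM in Dux KD cells and 1.48 and 1.18 TPM in WT cells, too low for its fitted interaction to be read as a size. Slc38a2, a neutral amino acid transporter, was lower than additive, at 53.4 and 54.1 TPM in Usp17le OE-Dux KD cells, 58.5 and 64.3 TPM in Usp17le OE cells, 36.1 and 37.9 TPM in Dux KD cells and 20.6 and 19.4 TPM in WT cells (interaction -1.07 ± 0.08, adjusted p = 7.97e-06).

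The aminoacyl-tRNA synthetases, which charge tRNAs, departed upward wherever they were called. Of 20 genes, 14 were higher than additive and 0 lower, against 20.2% and 24.5% of all genes, with a median of 0.35. The plasmid alone raised 0 and lowered 19, and the hairpin raised all 20 in plasmid cells and 18 in WT cells. Vars was at 102 and 99.1 TPM in Usp17le OE-Dux KD cells, 43.7 and 43.3 TPM in Usp17le OE cells, 144 and 147 TPM in Dux KD cells and 102 and 99.7 TPM in WT cells, so that doubly manipulated cells stood at the WT level (interaction 0.68 ± 0.05, adjusted p = 7.9e-06). Lars and Yars had interactions of 0.66 ± 0.05 (adjusted p = 9.02e-06) and 0.55 ± 0.07 (adjusted p = 0.000157). Cholesterol synthesis moved likewise, with 13 of 25 genes higher, 2 lower and a median of 0.34 (60.0% called, against 44.7% of all genes). Insig1, the sterol sensor that holds SREBP in the endoplasmic reticulum, was at 60.0 and 58.2 TPM in Usp17le OE-Dux KD cells, 41.5 and 42.5 TPM in Usp17le OE cells, 76.7 and 79.6 TPM in Dux KD cells and 113 and 109 TPM in WT cells (interaction 1.00 ± 0.06, adjusted p = 1.59e-06). Dhcr7, the last enzyme of the pathway, had an interaction of 0.76 ± 0.08 (adjusted p = 4.32e-05), and Idi1, which isomerises isopentenyl diphosphate, one of -0.44 ± 0.09 (adjusted p = 0.00297).

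Among feedback and immediate early genes of ERK signalling more were called lower than higher. Of 27 measured genes (30 listed), 12 were lower than additive, 6 higher and 9 not called, with a median of -0.26. Over all genes 24.5% were lower and 20.2% higher, so the higher share of this list was near that over all genes. Myc (chromosome 15, 61985391 to 61990374, plus strand), the growth-promoting transcription factor, was at 15.4 and 16.7 TPM in Usp17le OE-Dux KD cells, 30.6 and 34.3 TPM in Usp17le OE cells, 7.04 and 8.63 TPM in Dux KD cells and 1.41 and 1.46 TPM in WT cells. Either manipulation raised Myc, but the hairpin lowered it in plasmid cells (log2 difference -1.01) and raised it in WT cells (2.36). The interaction was -3.37 ± 0.16 (adjusted p = 3.89e-07), and the additive value of 167 TPM was far above every library. Spry4, an inhibitor that ERK signalling induces against itself, was at 24.0 and 24.0 TPM in Usp17le OE-Dux KD cells, 46.6 and 44.3 TPM in Usp17le OE cells, 23.2 and 23.5 TPM in Dux KD cells and 4.46 and 4.15 TPM in WT cells (interaction -3.33 ± 0.09, adjusted p = 1.57e-08). Doubly manipulated cells matched cells with the hairpin alone to within 1 TPM, against an additive value of 243 TPM. Dusp6, an ERK phosphatase, was at 15.7 and 13.2 TPM in Usp17le OE-Dux KD cells, 30.0 and 31.3 TPM in Usp17le OE cells, 14.2 and 15.1 TPM in Dux KD cells and 5.27 and 4.07 TPM in WT cells (interaction -2.73 ± 0.18, adjusted p = 2.53e-06). Ier3, an early response gene for cell survival, went the other way, at 51.4 and 49.8 TPM in Usp17le OE-Dux KD cells, 12.9 and 10.9 TPM in Usp17le OE cells, 51.0 and 50.0 TPM in Dux KD cells and 89.0 and 96.8 TPM in WT cells (interaction 2.96 ± 0.11, adjusted p = 5.8e-08). In Spry4, Dusp6 and Ier3 alike, the cells with the hairpin were at nearly 1 level with or without the plasmid.

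Most pluripotency genes were called, more of them lower than higher than additive. Of 36 naive pluripotency genes, 18 were lower and 11 higher, against 24.5% and 20.2% of all genes. The other 7 were not called, and the median over the 36 was -0.22. The count of higher genes was 5 without scaling of the libraries, when 19 were lower. Nodal, the TGF-beta ligand of the early epiblast, was at 58.3 and 54.4 TPM in Usp17le OE-Dux KD cells, 161 and 155 TPM in Usp17le OE cells, 20.9 and 23.2 TPM in Dux KD cells and 15.3 and 15.6 TPM in WT cells (interaction -1.99 ± 0.09, adjusted p = 2.26e-07). Dppa2, a DNA-binding activator of Dux and of 2-cell genes, was at 114 and 109 TPM in Usp17le OE-Dux KD cells, 324 and 330 TPM in Usp17le OE cells, 85.0 and 80.7 TPM in Dux KD cells and 67.8 and 71.6 TPM in WT cells (interaction -1.80 ± 0.06, adjusted p = 5.8e-08). For both genes the plasmid raised the level, the hairpin raised it slightly in WT cells and lowered it strongly in plasmid cells. Zfp42, the marker Rex1, was at 1490 and 1480 TPM in Usp17le OE-Dux KD cells, 1710 and 1760 TPM in Usp17le OE cells, 1120 and 1120 TPM in Dux KD cells and 571 and 579 TPM in WT cells (interaction -1.18 ± 0.04, adjusted p = 5.8e-08). Zfp296, a partner of KLF4, had an interaction of -1.80 ± 0.09 (adjusted p = 6.19e-07). Socs3, the feedback inhibitor of LIF signalling, was higher than additive at 0.80 ± 0.04 (adjusted p = 1.06e-06).

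Of 21 measured formative and primed epiblast genes (22 listed), 6 were higher and 7 lower, against 20.2% and 24.5% of all genes. Foxd3, a forkhead factor of the exit from naive pluripotency, was at 20.3 and 22.3 TPM in Usp17le OE-Dux KD cells, 28.1 and 22.9 TPM in Usp17le OE cells, 4.71 and 4.96 TPM in Dux KD cells and 0.444 and 0.538 TPM in WT cells. The hairpin effect of -0.25 in plasmid cells did not pass the test, and that in WT cells was 3.07 (interaction -3.32 ± 0.22, adjusted p = 2.89e-06, additive value 213 TPM). Tcf15, a factor of primed cells, had an interaction of -1.34 ± 0.14 (adjusted p = 5.49e-05). Fgf15 was the opposite case, at 7.39 and 7.05 TPM in Usp17le OE-Dux KD cells, 1.08 and 0.499 TPM in Usp17le OE cells, 12.8 and 12.8 TPM in Dux KD cells and 10.6 and 9.36 TPM in WT cells (interaction 2.77 ± 0.36, adjusted p = 0.000271).

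**Figure D3:**
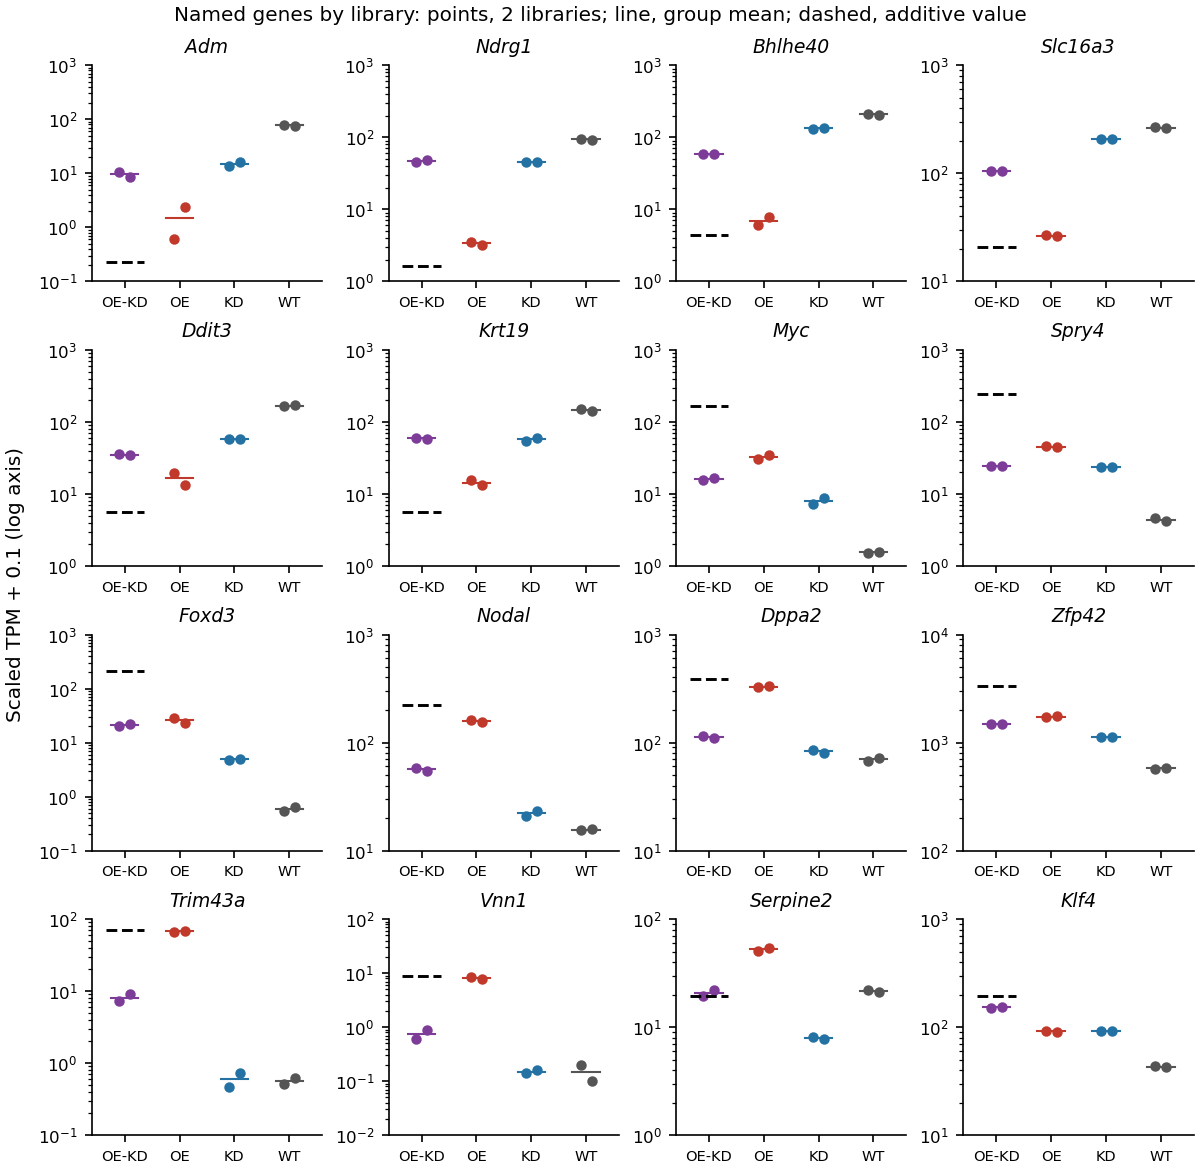
Scaled TPM plus the pseudocount of 0.1 in each library for 16 genes, on log axes. Points are the 2 libraries of Usp17le OE-Dux KD (OE-KD), Usp17le OE (OE), Dux KD (KD) and WT, horizontal lines are group means and the dashed line is the level that additive effects give for OE-KD. The dashed line lies below the OE-KD points for Adm, Ndrg1, Bhlhe40, Slc16a3, Ddit3 and Krt19, above them for Myc, Spry4, Foxd3, Nodal, Dppa2, Zfp42, Trim43a and Vnn1, and close to them for Serpine2 and Klf4.

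Genes of the 2-cell stage, many of them targets of Dux, were mostly raised by the plasmid and lowered by the hairpin in either background. Of 49 measured genes (58 listed), 16 were lower than additive, 2 higher and 31 not called (36.7% called, against 44.7% of all genes), although the median was -0.57. The plasmid raised 43 of the 49, and its median effect over all 49 was 3.63. The hairpin lowered 37 and raised 5 in plasmid cells, with a median of -2.26, and lowered 26 and raised 8 in WT cells, with a median of -1.39. On the TPM scale itself, with no test, the departure was negative in 45 of the 49 and positive in 4, against 7669 negative and 6986 positive of all 14659 genes. A gene that the plasmid raises and the hairpin lowers is negative on that scale even where its effects multiply exactly. Many members are of this kind, so the 45 of 49 cannot show a departure from additivity as defined here. The count of lower genes depended on how low values were treated, since many members are near 0 without the plasmid. It was 37 with a pseudocount of 1 (median -1.07) and 10 on recovered reads with voom (median -0.24).

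Trim43a (chromosome 9, 88580891 to 88588819, plus strand), a tripartite motif gene of the cleavage embryo, was at 7.15 and 8.9 TPM in Usp17le OE-Dux KD cells, 66.1 and 69.4 TPM in Usp17le OE cells, 0.372 and 0.631 TPM in Dux KD cells and 0.414 and 0.521 TPM in WT cells. The hairpin effect was -3.07 in plasmid cells and 0.06 in WT cells, which already had almost none (interaction -3.13 ± 0.31, adjusted p = 3.64e-05). Vnn1, a pantetheinase gene, was at 0.514 and 0.8 TPM in Usp17le OE-Dux KD cells, 8.56 and 7.75 TPM in Usp17le OE cells, 0.0404 and 0.0599 TPM in Dux KD cells and 0.0968 and 0.0 TPM in WT cells (interaction -3.57 ± 0.71, adjusted p = 0.00254). Spz1, a basic helix-loop-helix gene of the testis, was at 0.298 and 0.165 TPM in Usp17le OE-Dux KD cells, 2.1 and 3.6 TPM in Usp17le OE cells, 0.0 and 0.0452 TPM in Dux KD cells and 0.0 in both WT libraries. Vnn1 and Spz1 were near or at 0 without the plasmid, so the size of their fitted interaction depends on the pseudocount. Zscan4a, a member of the family that protects telomeres at this stage, was chosen after its values were seen because it was close to additive. It was at 6.55 and 6.0 TPM in Usp17le OE-Dux KD cells, 50.2 and 51.2 TPM in Usp17le OE cells, 0.389 and 0.321 TPM in Dux KD cells and 4.41 and 3.42 TPM in WT cells. The hairpin thus lowered Zscan4a by a like factor in both backgrounds (interaction 0.14 ± 0.22, adjusted p = 0.635, 95% interval -0.35 to 0.62). Zscan4f was lower than additive at -1.07 ± 0.25 (adjusted p = 0.0058), also chosen after its values were seen. Reads that map to several of these near-identical genes were dropped by the authors, so the Zscan4, Trim43 and Usp17l values are uncertain, as are those of Dux. Mt1, a metallothionein that binds zinc, was the member furthest above additive, at 612 and 733 TPM in Usp17le OE-Dux KD cells, 323 and 280 TPM in Usp17le OE cells, 1010 and 743 TPM in Dux KD cells and 1560 and 1520 TPM in WT cells (interaction 1.99 ± 0.22, adjusted p = 0.000475).

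**Figure D4:**
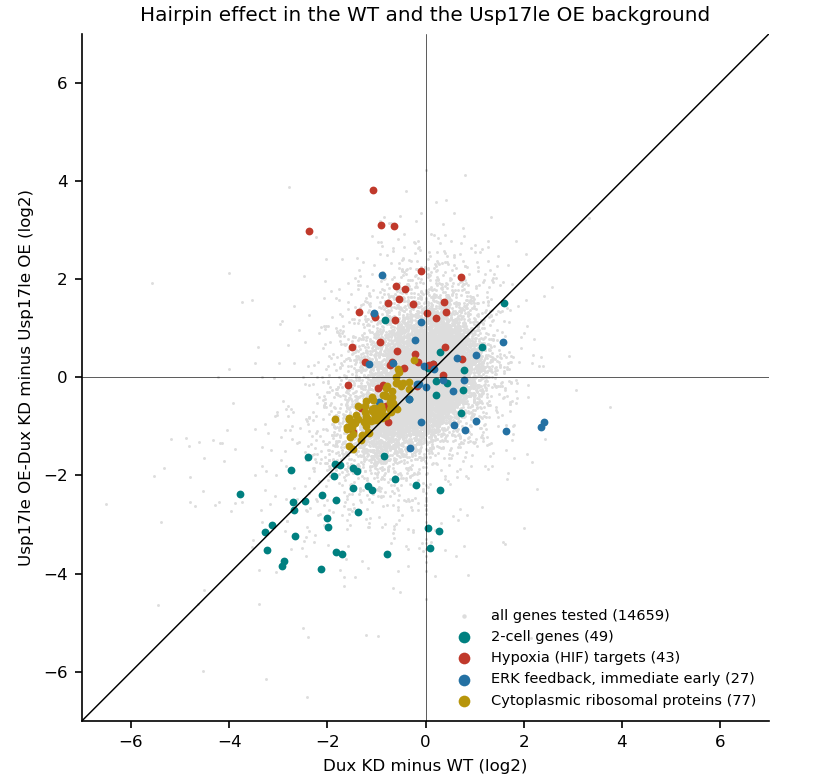
Hairpin effect in the Usp17le OE background (vertical axis, Usp17le OE-Dux KD minus Usp17le OE) against that in the WT background (horizontal axis, Dux KD minus WT), in log2 units. Grey points are all 14659 genes and the black line marks equal effects. Of the coloured lists, the 43 hypoxia targets lie mostly above the line and many at the upper left, the 49 2-cell genes lie mostly in the lower left on both sides of the line, the 27 ERK genes are spread on both sides, and the 77 ribosomal protein genes form a tight band in the lower left, most of them above the line.

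Genes for cytoplasmic ribosomal proteins were mostly lowered by either manipulation, and those called in the interaction all lay above the additive value. Of 77 measured genes (78 listed), 30 were higher than additive, 0 lower and 47 not called, with a median of 0.34. In all 39.0% were called, against 44.7% of all genes. The plasmid lowered 59 of them, and the hairpin lowered 63 in plasmid cells and 75 in WT cells, with median hairpin effects of -0.69 and -1.03. Their summed level was 181600 TPM in Usp17le OE-Dux KD cells, 290400 TPM in Usp17le OE cells, 197500 TPM in Dux KD cells and 388700 TPM in WT cells. Rpl23a, a large subunit protein, was at 5480 and 6040 TPM in Usp17le OE-Dux KD cells, 6610 and 6420 TPM in Usp17le OE cells, 6600 and 5630 TPM in Dux KD cells and 10700 and 10500 TPM in WT cells (interaction 0.62 ± 0.10, adjusted p = 0.000994). Rpl28 had an interaction of 0.63 ± 0.14 (adjusted p = 0.00951). These are short genes, and the share of all deposited TPM in genes under 1000 bases moved with the hairpin, at 30.6% and 32.1% in Usp17le OE-Dux KD libraries, 42.4% and 39.5% in Usp17le OE libraries, 31.3% and 28.5% in Dux KD libraries and 43.2% and 43.0% in WT libraries. Genes under 1000 bases had a median interaction of 0.111 (1579 genes), against -0.0359 for genes of 1000 to under 3000 bases and -0.0472 for longer ones. After removal of the trend with length, 38 ribosomal protein genes were higher and 3 lower, and the part of library composition in this result was not otherwise tested. The count of higher genes was 15 without the trend and robust options of limma, 17 without WT replicate 1, 18 without Usp17le OE replicate 2, 17 without Usp17le OE-Dux KD replicate 2 and 51 without Dux KD replicate 1.

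For ribosome assembly in the nucleolus and for the proteasome, more genes were called lower than higher. Of 39 nucleolar genes (40 listed), 19 were lower than additive, 7 higher and 13 not called, with a median of -0.16. Among all genes 24.5% were lower and 20.2% higher, so the higher share of the nucleolar list was near that over all genes. Polr1b, the second largest subunit of RNA polymerase I, was at 52.6 and 52.0 TPM in Usp17le OE-Dux KD cells, 44.6 and 45.0 TPM in Usp17le OE cells, 47.4 and 51.9 TPM in Dux KD cells and 22.5 and 22.2 TPM in WT cells. Each manipulation alone brought it close to the joint level (interaction -0.92 ± 0.07, adjusted p = 1.04e-05). Nop16 and Bysl, factors of subunit assembly, had interactions of -0.71 ± 0.07 (adjusted p = 3.11e-05) and -0.64 ± 0.10 (adjusted p = 0.00045), and Mybbp1a, a nucleolar corepressor, one of 0.46 ± 0.04 (adjusted p = 2.39e-05). Of 34 proteasome genes, 21 were lower and 2 higher, with a median of -0.23. The hairpin lowered 27 and raised 5 of them in plasmid cells, and lowered 22 and raised 7 in WT cells. The plasmid alone lowered 14 and raised 8, and the joint effect against WT had a median of -0.56. Psmc4, an ATPase subunit of the regulatory particle, was at 265 and 265 TPM in Usp17le OE-Dux KD cells, 356 and 350 TPM in Usp17le OE cells, 316 and 300 TPM in Dux KD cells and 254 and 250 TPM in WT cells (interaction -0.70 ± 0.05, adjusted p = 3.74e-06). Unlike the median of the list, Psmc4 rose with either manipulation and was near WT with both.

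The unfolded protein response of the endoplasmic reticulum departed downward wherever it was called. Of 27 genes, 14 were lower than additive and 0 higher, against 24.5% and 20.2% of all genes, with a median of -0.23. Xbp1, its transcription factor, was at 77.0 and 76.7 TPM in Usp17le OE-Dux KD cells, 87.6 and 85.0 TPM in Usp17le OE cells, 76.8 and 77.7 TPM in Dux KD cells and 43.1 and 34.3 TPM in WT cells (interaction -1.17 ± 0.12, adjusted p = 5.08e-05). All 3 manipulated groups were above WT and near each other. Dnajb9, a cochaperone of BiP, was at 17.9 and 15.5 TPM in Usp17le OE-Dux KD cells, 41.6 and 45.6 TPM in Usp17le OE cells, 13.5 and 13.3 TPM in Dux KD cells and 15.6 and 15.5 TPM in WT cells, so it was high with the plasmid alone and low in the other 3 groups (interaction -1.17 ± 0.20, adjusted p = 0.00109).

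Among neural, Notch and other developmental genes more were called higher than lower. The neural list had 9 of 14 measured genes (19 listed) higher and 0 lower, with a median of 1.14, the Notch pathway 9 of 26 higher and 3 lower (28 listed, median 0.48), and regulators targeted by Polycomb 11 of 28 higher and 2 lower (49 listed, median 0.62). In all 64.3% of the neural list was called, 46.2% of the Notch pathway and 46.4% of the Polycomb targets. The last 2 shares were near the 44.7% over all genes. The members below the filter, 21 of the 49 Polycomb targets among them, were not tested. Dtx1, an E3 ligase that acts on Notch, was at 6.65 and 7.12 TPM in Usp17le OE-Dux KD cells, 0.439 and 0.512 TPM in Usp17le OE cells, 12.6 and 12.2 TPM in Dux KD cells and 8.96 and 9.54 TPM in WT cells (interaction 3.18 ± 0.16, adjusted p = 5.95e-07). Dll1, a Notch ligand, was at 0.891 and 0.692 TPM in Usp17le OE-Dux KD cells, 0.317 and 0.35 TPM in Usp17le OE cells, 2.27 and 2.49 TPM in Dux KD cells and 10.2 and 11.4 TPM in WT cells (interaction 3.17 ± 0.25, adjusted p = 9.94e-06). Dtx1 was low with the plasmid alone, while Dll1 was low in all 3 manipulated groups. Notch2, a receptor, was lower than additive at -0.83 ± 0.20 (adjusted p = 0.00766).

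Lineage genes gave further examples. Krt19, a keratin of trophoblast and other simple epithelia, was at 60.1 and 58.0 TPM in Usp17le OE-Dux KD cells, 15.3 and 13.0 TPM in Usp17le OE cells, 55.0 and 59.8 TPM in Dux KD cells and 149 and 143 TPM in WT cells (interaction 3.40 ± 0.10, adjusted p = 2.17e-08). Cells with the hairpin overlapped whether or not they carried the plasmid. In all, 7 of 19 trophoblast genes were higher than additive and 3 lower (52.6% called, against 44.7% of all genes). Of 29 smooth muscle and contractile genes 14 were higher and 3 lower. Actc1, cardiac actin, was at 4.81 and 5.88 TPM in Usp17le OE-Dux KD cells, 1.09 and 0.432 TPM in Usp17le OE cells, 7.03 and 6.3 TPM in Dux KD cells and 13.8 and 11.4 TPM in WT cells (interaction 3.67 ± 0.46, adjusted p = 0.000309), whereas Cyr61, a matrix protein that YAP induces, was lower than additive at 26.2 and 26.1 TPM in Usp17le OE-Dux KD cells, 76.5 and 75.4 TPM in Usp17le OE cells, 9.3 and 10.1 TPM in Dux KD cells and 6.0 and 6.35 TPM in WT cells (interaction -2.18 ± 0.12, adjusted p = 7.95e-07). Col4a1 and Col4a2, which encode the basement membrane collagen of primitive endoderm, rose only in the doubly manipulated cells. Col4a1 was at 46.9 and 46.9 TPM in Usp17le OE-Dux KD cells, 26.4 and 24.6 TPM in Usp17le OE cells, 21.4 and 21.5 TPM in Dux KD cells and 25.1 and 23.4 TPM in WT cells. The 2 genes had interactions of 1.06 ± 0.09 (adjusted p = 1.1e-05) and 1.18 ± 0.13 (adjusted p = 7.75e-05). Of primitive endoderm genes 5 of 18 were higher and 3 lower, against 20.2% and 24.5% of all genes.

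Markers of feeder fibroblasts did not all move together. Their summed level over 20 markers was 383.7 and 385.0 TPM in Usp17le OE-Dux KD libraries, 268.7 and 271.3 TPM in Usp17le OE libraries, 402.4 and 410.1 TPM in Dux KD libraries and 338.8 and 337.3 TPM in WT libraries, lowest with the plasmid alone. Of the 14 that passed the filter, 7 were higher than additive and 1, Vim, lower (-0.20 ± 0.05), with a median of 0.75. Those higher included Mmp2 (1.37 ± 0.12), Pdgfrb (1.43 ± 0.16) and Twist1 (1.54 ± 0.49), the last a call lost under 6 of 17 alternatives. Mmp2 was at 33.5 and 36.3 TPM in Usp17le OE-Dux KD cells, 12.5 and 14.2 TPM in Usp17le OE cells, 23.8 and 21.8 TPM in Dux KD cells and 23.6 and 21.7 TPM in WT cells. The collagens Col1a2 and Col5a2 were under 1 TPM throughout and highest with the plasmid alone. In Usp17le OE libraries they were at 0.549 and 0.779 TPM and at 0.755 and 0.726 TPM, and in WT at 0.136 and 0.124 TPM and at 0.106 and 0.0482 TPM. Between 10 and 12 of the 20 markers were under 1 TPM in both libraries of a group, and Dcn, Lum, Postn, Prrx1 and Col3a1 were at or near 0 in all groups. Most of the sum came from Fn1 and Vim, which stem cells also express. By the study's methods J1, the labelled line, was grown without feeders and E3 on them. The part of other cells in the departures of developmental genes was not otherwise tested.

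Chromatin factors that act on the Dux locus departed downward more often than upward, with 21 of 42 lower, 9 higher and a median of -0.24. Of all genes 24.5% were lower and 20.2% higher, so the higher share of these factors was near that over all genes. Smarcad1, a nucleosome remodeller, was at 45.9 and 44.9 TPM in Usp17le OE-Dux KD cells, 51.1 and 55.5 TPM in Usp17le OE cells, 40.2 and 39.2 TPM in Dux KD cells and 20.6 and 22.0 TPM in WT cells (interaction -1.13 ± 0.09, adjusted p = 7.56e-06). Usp16, a deubiquitinase of histone H2A, had an interaction of -1.12 ± 0.12 (adjusted p = 5.08e-05). Ehmt2, the H3K9 methyltransferase G9a, went the other way, at 49.1 and 49.0 TPM in Usp17le OE-Dux KD cells, 19.3 and 18.4 TPM in Usp17le OE cells, 80.6 and 81.5 TPM in Dux KD cells and 63.6 and 61.2 TPM in WT cells (interaction 1.00 ± 0.06, adjusted p = 2.46e-06). The plasmid lowered Ehmt2 and the hairpin raised it, and it raised it more when the plasmid was present.

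In the remaining lists the counts are read against the 20.2% of all genes called higher and the 24.5% called lower. Among p53 targets 13 of 30 were lower and 6 higher, the higher share being near that over all genes, with Tigar, a regulator of glycolysis, at -1.42 ± 0.09 (adjusted p = 3.04e-06) and Ccng2, a growth-arrest cyclin, at 1.37 ± 0.16 (adjusted p = 0.000106). Of 36 DNA replication genes 14 were lower and 11 higher, with Rfc3, a clamp loader subunit, at -1.06 ± 0.06 (adjusted p = 1.19e-06). Germline genes had 9 of 34 lower and 8 higher, near the shares over all genes. Of these, Tex19.1, a placental and germline gene that restrains transposons, was at 215 and 210 TPM in Usp17le OE-Dux KD cells, 496 and 454 TPM in Usp17le OE cells, 121 and 139 TPM in Dux KD cells and 91.8 and 85.2 TPM in WT cells (interaction -1.71 ± 0.09, adjusted p = 9.7e-07). Interferon response genes had 4 of 20 higher and 3 lower, and replication-dependent histones 4 of 21 higher and 0 lower, the higher share in each being near that over all genes. The histone count was 1 without WT replicate 1, 2 without Dux KD replicate 2 and 2 without Usp17le OE-Dux KD replicate 2.

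**Figure D5:**
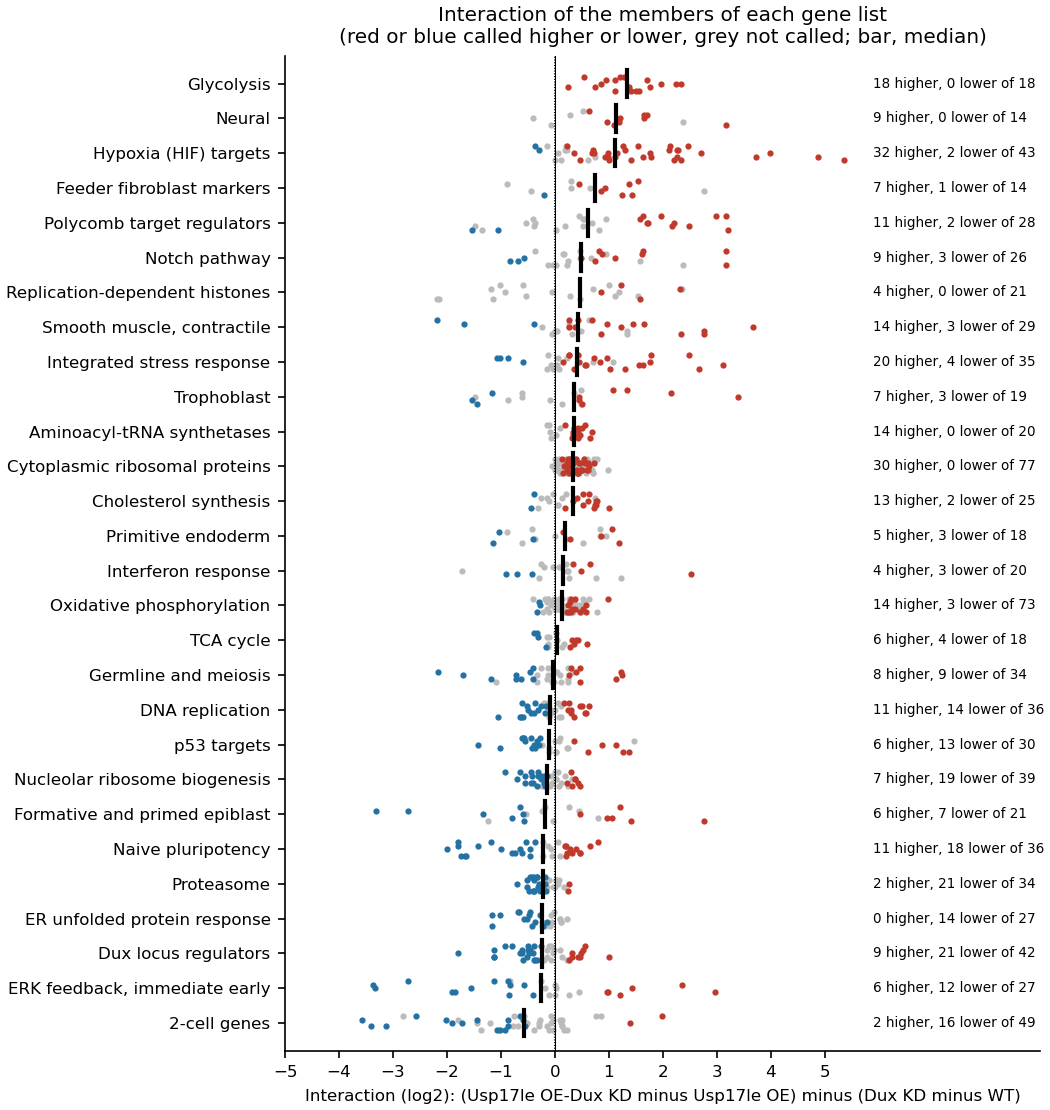
Interaction of each measured member of 28 gene lists, in log2 units on the horizontal axis, with lists ordered by their median from glycolysis (1.33) to 2-cell genes (-0.57). Each point is a gene, red if called higher than additive, blue if called lower and grey if not called, and the black bar is the list's median. The counts called are printed at the right. Every glycolysis gene lies to the right of 0, and members of the 2-cell, ERK feedback and formative lists lie furthest to the left.

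Among the genes with the largest departures outside these lists, several had the pattern of Ndrg1. Hrc, a calcium-binding protein gene of the sarcoplasmic reticulum, Nxph4, a secreted neurexophilin, Aoc3, an amine oxidase, and Alox12b, a lipoxygenase, were all lowest with the plasmid alone and had interactions of 4.12 ± 0.33, 4.11 ± 0.38, 3.81 ± 0.32 and 3.97 ± 0.41, with adjusted p-values of 9.18e-06, 9.83e-05, 1.29e-05 and 4.65e-05. Hrc, Aoc3 and Alox12b were under 1 TPM with the plasmid alone, and with a pseudocount of 1 their estimates were 2.21, 2.60 and 2.69. Bhlhe41, the paralog of Bhlhe40, was at 0.795 and 1.18 TPM in Usp17le OE-Dux KD cells, 0.142 and 0.0654 TPM in Usp17le OE cells, 1.66 and 1.6 TPM in Dux KD cells and 5.32 and 5.65 TPM in WT cells (interaction 4.11 ± 0.36, adjusted p = 1.74e-05, and 2.15 with a pseudocount of 1). Gadd45g, a growth-arrest gene, had another pattern, at 2.39 and 3.38 TPM in Usp17le OE-Dux KD cells, 2.01 and 2.6 TPM in Usp17le OE cells, 7.33 and 6.17 TPM in Dux KD cells and 75.4 and 76.9 TPM in WT cells. Doubly manipulated cells overlapped cells with the plasmid alone, and all 3 manipulated groups were far below WT (interaction 3.78 ± 0.25, adjusted p = 3.19e-06). Pyy, a gut peptide hormone gene, was at 0.383 and 0.88 TPM in Usp17le OE-Dux KD cells, 0.435 and 0.602 TPM in Usp17le OE cells, 0.391 and 0.218 TPM in Dux KD cells and 6.68 and 5.76 TPM in WT cells (interaction 4.16 ± 0.52, adjusted p = 0.000146, and 2.56 with a pseudocount of 1), likewise low in every manipulated group.

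At the lower end stood genes that the plasmid raised strongly. Zfp936, a zinc finger gene, was at 9.26 and 7.96 TPM in Usp17le OE-Dux KD cells, 32.1 and 34.6 TPM in Usp17le OE cells, 4.5 and 3.34 TPM in Dux KD cells and 1.13 and 1.17 TPM in WT cells (interaction -3.62 ± 0.21, adjusted p = 1.43e-06). Msc, the basic helix-loop-helix repressor musculin, was at 3.64 and 4.84 TPM in Usp17le OE-Dux KD cells, 14.8 and 13.6 TPM in Usp17le OE cells, 2.42 and 2.95 TPM in Dux KD cells and 0.818 and 0.31 TPM in WT cells (interaction -3.91 ± 0.54, adjusted p = 0.000387). Both rose with the hairpin in WT cells and fell with it in plasmid cells. Serpinb9b, a granzyme inhibitor gene, and Ube2dnl1, a ubiquitin-conjugating enzyme gene, did the same, with interactions of -3.80 ± 0.34 (adjusted p = 1.77e-05) and -4.56 ± 0.89 (adjusted p = 0.00392), the second of which was -3.02 with a pseudocount of 1. Ankrd22, an ankyrin repeat gene, was at 0.653 and 0.276 TPM in Usp17le OE-Dux KD cells, 5.85 and 5.74 TPM in Usp17le OE cells, 0.0557 and 0.0413 TPM in Dux KD cells and 0.0667 and 0.0606 TPM in WT cells (interaction -3.33 ± 0.64, adjusted p = 0.00211, and -2.21 with a pseudocount of 1). Without the plasmid Ankrd22 was near 0, with 2 reads in each library. The hairpin could therefore hardly lower it there, and a fall in plasmid cells alone gives a negative interaction. The defensin gene Defb25 was at 0.0 and 0.3 TPM in Usp17le OE-Dux KD cells, 6.3 and 8.88 TPM in Usp17le OE cells, 0.333 and 0.0 TPM in Dux KD cells and 0.399 and 0.363 TPM in WT cells, and its call (adjusted p = 0.0466) was lost under 10 of the 16 alternatives that gave it a value, among them the omission of either WT library, either Usp17le OE library, Dux KD replicate 1 or Usp17le OE-Dux KD replicate 1 (adjusted p from 0.0733 to 0.148). Snord35a and Mir3072 lie within Rpl13a and Mirg, whose reads cannot be told apart from theirs. Snord35a belongs to the upper end, fitted higher than additive, and the plasmid did not change it by the test (limma adjusted p = 0.671). Snord35a was at 2.68 and 0.987 TPM in Usp17le OE-Dux KD cells, 10.4 and 10.1 TPM in Usp17le OE cells, 0.0 in both Dux KD libraries and 8.54 and 9.56 TPM in WT cells. Mir3072 was at 0.575 and 1.06 TPM in Usp17le OE-Dux KD cells, 11.1 and 12.7 TPM in Usp17le OE cells and 0.0 in both Dux KD and both WT libraries. Values of 0 leave the size of either interaction undefined, and on recovered reads with voom neither was called (adjusted p = 0.0986 and 0.151).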

How the data were processed

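RNA-seq values of 10 libraries in 5 groups were taken from the deposited table. Its values are TPM, which the authors made, per the submitters' processing notes and the study's methods, by trimming with Trim Galore, aligning to mm10 with HISAT2, counting uniquely mapped reads with featureCounts at default settings (strand ignored) and dividing by the gene length that the deposited table also lists. Versions are not given in the sources used here. Multiplying TPM by length recovered whole reads (100% of values within 0.01 of a whole number), 32188285 to 50457228 per library, so counting error was small except for genes with few reads. The authors name DESeq2 for their own comparisons. Since the table holds TPM, limma was used.

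Libraries were scaled by median of ratios over 14902 genes (factors 0.8169 to 1.2303). Values were fitted as log2(TPM + 0.1), for genes reaching 0.5 TPM in 2 or more libraries, with limma (version 3.58.1, run in R 4.3.3 beside statmod 1.5.0), its trend and robust options, 1 mean for each of the 5 groups, 5 residual degrees of freedom and a median prior of 4.87. The group Dux KD-Usp17le OE served only for the spread. P-values are two-sided and were adjusted by Benjamini and Hochberg's method across the 14659 genes. The steps were also run on simulated reads with the same spread setting for every gene, which cannot bear on the spread of these libraries. Fold changes on this scale understate those of genes near 0. There were 27 symbols turned into dates, which were kept in the fit and not named.

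The comparison, its members and the gene lists were chosen with earlier results of these data known, and some genes stand in several lists. Named genes were the targets, the 12 called genes with the largest interaction each way at 5 TPM or more in a group (predicted genes left out), for each list the 3 called members with the largest interaction in its more frequent direction and 1 in the other, at 1 TPM or more, and up to 6 near-additive genes at 5 TPM or more. Some of them are not described. Promoter windows came from RefSeq (GRCm38.p6), where Ndrg1, Bhlhe40 and Ndufa4l2 had no entry. Alternatives were no scaling, another pseudocount, other filters, the 8 libraries alone, a replicate block, plain empirical Bayes, voom on recovered reads, removal of a trend with gene length, and leaving out each library.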

Additional observations from a re-analysis of the deposited data

Results flagged for a closer look

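The hairpin effect differed between the plasmid and the WT background for 6546 genes by the test of the difference itself, the interaction (limma, adjusted p under 0.05). Of 123 named genes 120 were called, and 50 had hairpin effects of opposite sign in the 2 backgrounds. Most named genes were chosen for a called and large interaction, so these counts follow from the choice. Over all 14659 genes 44.7% were called, and 1144 of the 6546 called genes (17.5%) had hairpin effects of opposite sign. In 15 of the named genes both hairpin effects were called, at least 2-fold and opposite, 9 with a positive and 6 with a negative interaction.

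The 9 genes that the hairpin raised in plasmid cells and lowered in WT cells were Adm (interaction 5.35), Ndrg1 (4.87), Bhlhe41 (4.11), Alox12b (3.97), Krt19 (3.40), Dll1 (3.17), Fgf21 (3.11), Ddit3 (2.67) and the homeobox gene Dlx3 (2.21). Dlx3 was at 1.8 and 1.91 TPM in Usp17le OE-Dux KD cells, 0.876 and 0.673 TPM in Usp17le OE cells, 2.48 and 2.86 TPM in Dux KD cells and 5.62 and 5.56 TPM in WT cells. The 6 genes that the hairpin lowered in plasmid cells and raised in WT cells were Ube2dnl1 (-4.56), Msc (-3.91), Serpinb9b (-3.80), Zfp936 (-3.62), Myc (-3.37) and Dusp6 (-2.73). The size for Fgf21 is uncertain because it was at 0.0 TPM in both Usp17le OE libraries. With 2 libraries in a group, no library could be tested for standing apart from its group.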

How the results depend on the processing

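The count of 6546 calls was 6462 without scaling of the libraries (2321 higher and 4141 lower, median interaction -0.113), 6734 with a pseudocount of 1, 6428 without a filter, 6394 with a filter of 1 TPM in 4 libraries, 6335 from the 8 libraries alone, 6080 with plain empirical Bayes, 7082 with voom on recovered reads and 6740 after removal of the length trend. With at least 2-fold required it was 1945, with 1144 higher and 801 lower. Leaving out 1 library gave 5623 to 6218 calls, 2460 to 2924 of them higher and 3132 to 3294 lower. Between 83.3% and 98.7% of the 6546 genes were called under each alternative, and 0 shared genes changed sign. Near-additive genes numbered 4, with 7 at a pseudocount of 1 and 2 to 4 when a library was left out.

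With a replicate block the count of calls was 6479. Replicate numbers did not pair the libraries, since deviations of same-numbered libraries correlated at -0.052 to 0.04 between groups.

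Of 123 named genes, 107 kept direction and call under each of the 17 alternatives that gave them a value, 7 of the 123 having no value under the filter of 1 TPM in 4 libraries. A call was lost in at least 1 alternative for 14, and 2, Usp17le and Dux, gained one with a pseudocount of 1. Reversed estimates were seen for Usp17le without WT replicate 2 (0.3, against -1.05 without WT replicate 1, where it was called) and for Dux with voom (0.56), neither called, and the cause was not tested.

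With 2 libraries per group, 1 library can decide a call near the threshold. Genes near 0 TPM in a group depend on the pseudocount, and genes at 0 give no size. Depth limits genes with few reads, such as Dux with 0 to 80 uniquely mapped reads per library.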
